A study of Homo sapiens with 6 samples.

Results

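Homologous recombination genes, Fanconi anaemia pathway genes and DNA damage checkpoint genes were examined as 1 set of 52 genes, matched by exact symbol to probe sets with a single gene symbol. Of these, 48 were measured, among 18244 genes in all. BRCA2, FANCA, FANCD2 and RBBP8 had no such probe set in the annotation used and were not analysed here. Each gene was read from its brightest probe set, the one with the highest mean over all 6 arrays, and its remaining probe sets served as a check.

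RNA came from the human lung adenocarcinoma cell line A549, grown in DMEM with serum. A lentivirus had delivered a short hairpin RNA, either shTIGD1, directed at the transposase-derived gene TIGD1, or the control hairpin, called shControl in the sample titles and shNC in the protocol. A hairpin of this kind is processed into a small RNA that directs the cutting of a matching transcript. The sequences below are shown because the hairpin is the only labelled difference between the groups, and neither carries a marked base.
shTIGD1: ctgctaacacaacatccat
shNC: ttctccgaacgtgtcacgt
Each group had 3 arrays, and a single hairpin stood for TIGD1, so an effect of the hairpin sequence other than through TIGD1 cannot be told apart from an effect of TIGD1. Replicates carry a number in the labels but no separate culture is named. A p-value here thus sets the difference between the groups only against the scatter among these arrays, which could be technical scatter. The number of arrays limits the precision.

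Homologous recombination repairs a broken chromosome by copying an intact sister. The broken ends are first resected, BRCA1, PALB2 and BRCA2 then prepare the single strand for pairing with the sister, and the joined molecules are finally dissolved or cut. The Fanconi pathway handles crosslinks between the strands: a core complex with the E2 enzyme UBE2T attaches ubiquitin to FANCD2 and FANCI, which recruit nucleases. ATM and ATR are the kinases that sense breaks and single-stranded DNA, and CHEK2 and CHEK1 carry their signals to the cell cycle. Many of these genes are transcribed mainly in S and G2 phase, so their level in bulk RNA depends on how many cells cycle.

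TIGD1 itself, read by 1 probe set, had log2 signals of 6.88, 6.84 and 6.86 on the arrays labelled shTIGD1, against 6.96, 6.93 and 6.85 on the arrays labelled shControl. The groups overlapped, and the log2 change of -0.06 (SE 0.04, 95% interval -0.16 to 0.04) did not pass (limma adjusted p = 0.389). With the control scalings described further on, TIGD1 was called higher in shTIGD1, by 0.15 with the hybridization controls (adjusted p = 0.0388) and by 0.28 with the poly-A controls (adjusted p = 0.00227). In no alternative was TIGD1 called lower, and each direction given here follows the labels. Epithelial A549 markers were bright, with group means from 7.63 to 14.19 over 8 genes. The 21 measured markers of immune cells, endothelium and fibroblasts had a median of 4.73. CD14 (8.21 on both groups of arrays) and CD68 (7.40 on shTIGD1 and 7.36 on shControl arrays) were exceptions, and the 23 background probe sets of the array had a median near 3.24 on shTIGD1 and 3.29 on shControl arrays. Of these 21 markers 2 were called lower, COL3A1 with 5.32 on shTIGD1 and 5.88 on shControl arrays (-0.56, adjusted p = 0.00409) and ITGAM with a change of -0.19 (adjusted p = 0.0405). By limma 0 were called higher, also 0 at an unadjusted p of 0.05. Of the 8 epithelial markers 2 were called higher, EPCAM by 0.87 (adjusted p = 0.000628) and CDH1 by 0.66 (adjusted p = 0.000513). Apart from ITGAM, these marker changes exceed every change in the set, and their part in the results was not tested.

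Of the 48 measured genes, 21 passed a limma adjusted p of 0.05, 7 as higher and 14 as lower in shTIGD1 than in shControl. That is 43.8%, where 23.8% of all genes passed, 9.81% as higher and 14.0% as lower. The set was brighter, with a median log2 signal of 7.97 against 6.91 over all genes. With genes under a mean signal of 5 left out, 8 of 47 were higher and 17 lower in the set. Among all genes these were 2164 and 3052 of 12776. The part of brightness in these shares was not tested. Since the genes were chosen with earlier results of these data known, no test of the set as a whole is given. The changes were small: the called genes differed between 1.11-fold and 1.42-fold, and none reached 1.5-fold. The median log2 change was -0.08 over the set and -0.04 over all genes. The groups were separate, with no overlapping values, for 32 of the 48 genes (66.7%), against 42.3% of all genes. The leading rises were in RAD51AP1, ATM, GEN1, BRIP1 and CHEK2, and the leading falls in BLM, FANCG, FAAP100, ATR and RAD50. Of these, the GEN1 rise rests on its brightest probe set alone, and the BRIP1 signal lies close to background.

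**Figure D1:**
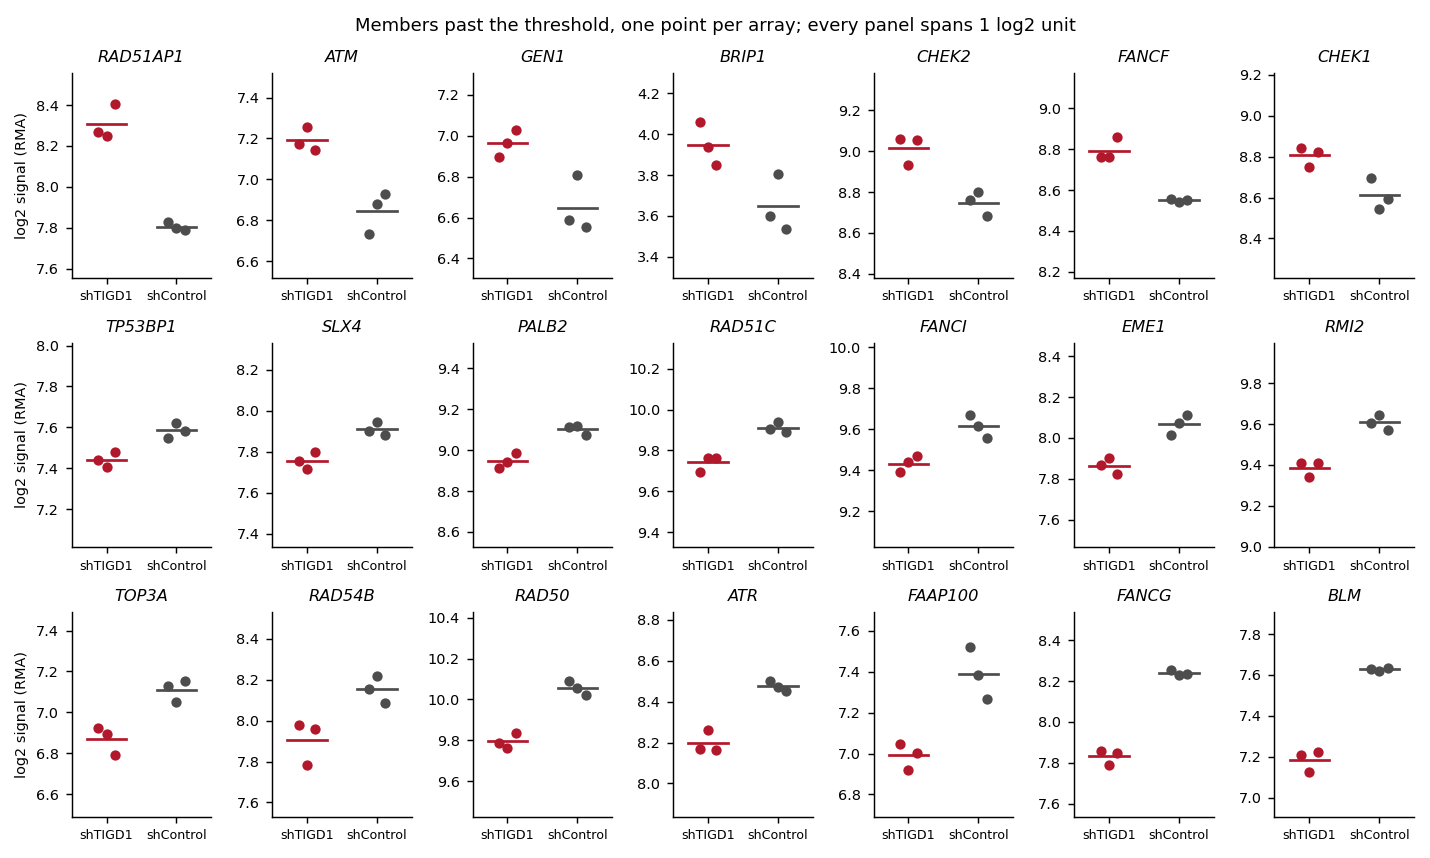
Log2 signal (vertical axis) of the 21 genes past the threshold, with 1 point per array, shTIGD1 arrays in red on the left and shControl arrays in grey on the right; horizontal lines are group means (n = 3 each) and every panel spans 1 log2 unit. In all 21 panels the points of the groups do not overlap, and RAD51AP1 and BLM show the widest gaps upward and downward.

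The direction of small changes depended on how the arrays were levelled. The hybridization controls, bacterial transcripts added with the hybridization mix, averaged 10.25 on shTIGD1 and 10.46 on shControl arrays, a difference of -0.21. The poly-A controls, added to the RNA before labelling, averaged 6.81 and 7.15 on the same groups, a difference of -0.33. Levelling on the first moved the median log2 change of all genes to 0.17, with 21 genes of the set higher and 2 lower (47.9% of all genes higher and 1.98% lower). Levelling on the second moved it to 0.30, with 36 of the set higher and 0 lower by limma, also 0 at an unadjusted p of 0.05 (76.5% of all genes higher and 0.652% lower). The 7 rises passed under both scalings. Each scaling raised the changes of all genes alike, so a rise could only become larger. Of the 14 falls, BLM and FANCG alone still passed as lower with the hybridization controls, and 11 had turned positive with the poly-A controls. Some of these 11 then passed as higher by limma. They were PALB2 (0.18, adjusted p = 0.0135), RAD51C (0.16, 0.0243), FANCI (0.15, 0.0338), SLX4 (0.18, 0.0108) and TP53BP1 (0.19, 0.0115). Which scaling describes the cells was not tested. Changes below are as deposited, and "fell" is relative to a genome-wide median of -0.04.

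**Figure D2:**
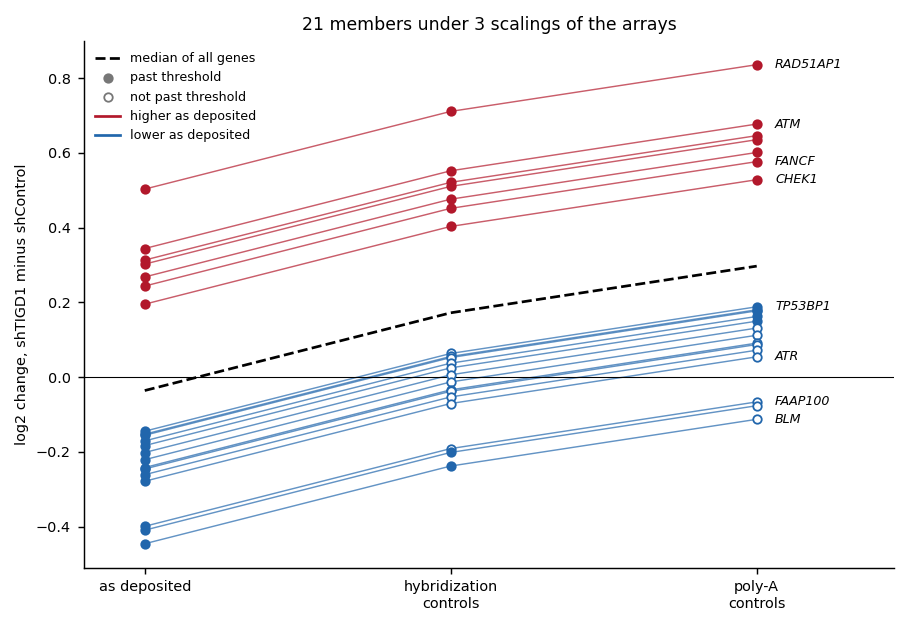
Log2 change, shTIGD1 minus shControl (vertical axis), of the 21 called genes under 3 levellings of the arrays, filled where past the threshold; the dashed line is the median of all genes. All lines run parallel, the 7 rises stay above the dashed line and the 14 falls below it, and 11 of the falls lie above 0 with the poly-A controls.

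Among the checkpoint genes, ATM, CHEK2 and CHEK1 rose, while the kinase gene ATR and the 53BP1 gene TP53BP1 fell. Of 8 genes, 3 were called higher and 2 lower (62.5%, against 23.8% of all genes), with a median of -0.10. ATM, the kinase activated by double-strand breaks, had 7.17, 7.26 and 7.15 on shTIGD1 arrays, against 6.73, 6.88 and 6.93 on shControl arrays. Every shTIGD1 array lay above every shControl array, a log2 change of 0.34 (SE 0.06, adjusted p = 0.0105). ATR, the kinase activated by single-stranded DNA, had 8.17, 8.26 and 8.16 on shTIGD1 arrays, against 8.50, 8.47 and 8.45 on shControl arrays. It moved opposite to ATM, with a change of -0.28 (SE 0.04, adjusted p = 0.00514), and turned to 0.05 with the poly-A controls. Among all genes the ATM change stood at the 96.8th percentile and the ATR change at the 5.0th, an order that no common shift of the arrays can alter. Both calls held without any single array.

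CHEK2, the kinase downstream of ATM, had 9.06, 8.93 and 9.06 on shTIGD1 arrays, against 8.76, 8.80 and 8.68 on shControl arrays. The groups were separate and the change was 0.27 (SE 0.05, adjusted p = 0.0143). All 3 CHEK2 probe sets passed as higher, with changes between 0.25 and 0.27. CHEK1, the kinase downstream of ATR, had 8.84, 8.75 and 8.82 on shTIGD1 arrays, against 8.69, 8.55 and 8.59 on shControl arrays, a change of 0.20 (SE 0.05, adjusted p = 0.0357). All 6 of its probe sets were above 0, from 0.13 to 0.29, and 5 of them passed. CHEK1 therefore went with CHEK2 and ATM and not with ATR. The CHEK2 call ended without shTIGD1 replicate 1 or 3, with adjusted p between 0.0180 and 0.0531 over the 6 fits that leave out 1 array. The CHEK1 call ended in 5 of those fits and held only without shControl replicate 1 (changes of 0.16 to 0.24, adjusted p between 0.0280 and 0.110).

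TP53BP1, a chromatin reader that limits resection, had 7.44, 7.41 and 7.48 on shTIGD1 arrays, against 7.55, 7.62 and 7.58 on shControl arrays. The gap was narrow (-0.14, SE 0.04, adjusted p = 0.0374). Its call ended in each of the 6 fits (adjusted p between 0.0579 and 0.103), and 1 of its dimmer probe sets had a change of 0.13. ATRIP, the binding partner of ATR, had a change of -0.23 with 6.43, 6.13 and 6.30 on shTIGD1 arrays, against 6.52, 6.55 and 6.48 on shControl arrays, and did not pass (adjusted p = 0.0809). Neither did TOPBP1, which activates ATR (-0.12), nor the mediator MDC1 (-0.09).

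Among the genes that take apart joined DNA molecules, BLM, RMI2, TOP3A and EME1 fell and GEN1 rose. Of 8 genes, 4 fell, 1 rose and 3 did not pass (62.5% called, against 23.8% of all genes), with a median of -0.18. Of the 4 falls, 3 were in the complex of BLM, TOP3A, RMI1 and RMI2 that dissolves double Holliday junctions. BLM, the helicase of that complex, had 7.21, 7.12 and 7.22 on shTIGD1 arrays, against 7.63, 7.62 and 7.64 on shControl arrays. This was the largest fall of the set, -0.45 (SE 0.04, adjusted p = 0.00106), so the level fell by 26.6%, and it lay at the 0.89th percentile of all changes. RMI2, an accessory subunit, had 9.41, 9.34 and 9.41 on shTIGD1 arrays, against 9.61, 9.64 and 9.57 on shControl arrays, a change of -0.22 (SE 0.04, adjusted p = 0.00995). The topoisomerase gene TOP3A had 6.92, 6.89 and 6.79 on shTIGD1 arrays, against 7.13, 7.05 and 7.15 on shControl arrays. Its change was -0.24 (SE 0.05, adjusted p = 0.0175), and a second probe set also passed as lower (-0.17). RMI1 stood apart: its brightest probe set missed the threshold (-0.16, adjusted p = 0.0645), while a dimmer one passed as higher (0.26). The BLM and RMI2 calls held without any single array. The TOP3A call ended without shControl replicate 1 or 3 (adjusted p between 0.0259 and 0.0567 over the 6 fits). With the poly-A controls BLM stayed negative at -0.11, and RMI2 and TOP3A turned to 0.11 and 0.09.

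The nucleases that cut such junctions did not move together. EME1, the partner of the MUS81 nuclease, had 7.87, 7.90 and 7.82 on shTIGD1 arrays, against 8.02, 8.07 and 8.11 on shControl arrays, a change of -0.20 (SE 0.04, adjusted p = 0.0165). MUS81 itself had a change of -0.06 and did not pass (adjusted p = 0.294). GEN1, a resolvase that acts on its own, had 6.90, 6.96 and 7.03 on shTIGD1 arrays, against 6.59, 6.81 and 6.55 on shControl arrays, a change of 0.31 (SE 0.08, adjusted p = 0.0283). The GEN1 rise rests on its brightest probe set. The other GEN1 probe sets had changes of -0.11 and -0.39, neither past the threshold, and the mean of all was -0.06. The EME1 call ended without shTIGD1 replicate 1 or 3 and without shControl replicate 3 (adjusted p between 0.0267 and 0.0581). The GEN1 call held only without shControl replicate 2 (0.39), with changes of 0.26 to 0.39 and adjusted p between 0.0101 and 0.0882. The helicase WRN differed by -0.01, with a 95% interval of -0.08 to 0.07.

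**Figure D3:**
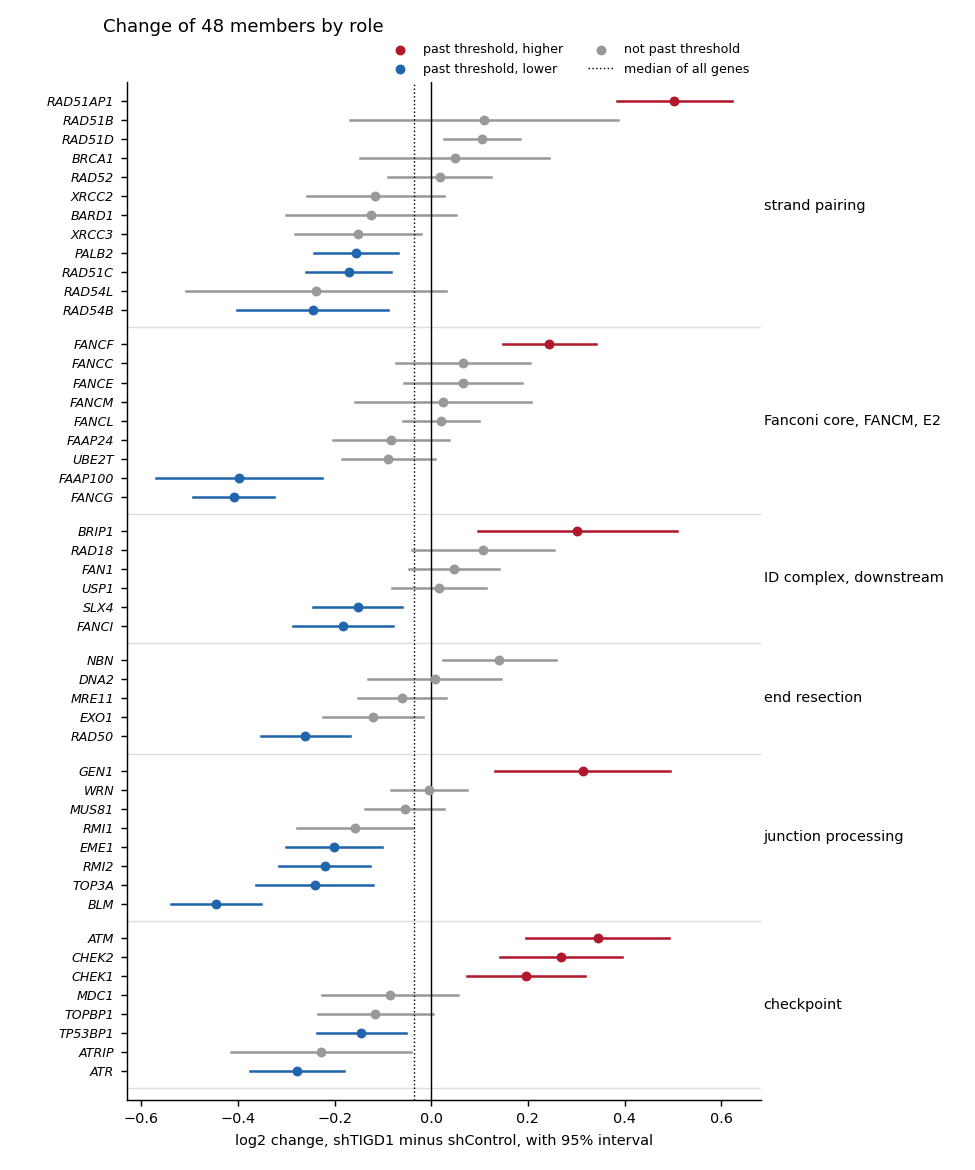
Log2 change, shTIGD1 minus shControl, with its 95% interval (horizontal axis) for the 48 genes, grouped by role and ordered by change; red and blue mark genes past the threshold as higher and lower, and the dotted line is the median of all genes at -0.04. Both directions occur in 5 of the 6 roles, and 4 of the 8 junction processing genes are blue.

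The genes that prepare and assist strand pairing gave the largest rise of the set beside 3 calls as lower, in 12 measured genes with a median of -0.12. That is 33.3% called, against 23.8% of all genes. RAD51AP1, which helps to pair the strands, had 8.27, 8.25 and 8.40 on shTIGD1 arrays, against 7.83, 7.80 and 7.79 on shControl arrays. The lowest shTIGD1 array lay 0.42 above the highest shControl array, and the change was 0.50 (SE 0.05, adjusted p = 0.00153), a level 41.7% higher at the 98.8th percentile of all changes. All 4 RAD51AP1 probe sets were above 0, from 0.22 to 0.50, and 2 passed, though not the second brightest. PALB2, the bridge between BRCA1 and BRCA2, had 8.91, 8.94 and 8.99 on shTIGD1 arrays, against 9.12, 9.12 and 9.07 on shControl arrays, a change of -0.16 (SE 0.04, adjusted p = 0.0254). RAD51C, which acts with XRCC3, had 9.70, 9.77 and 9.76 on shTIGD1 arrays, against 9.90, 9.94 and 9.89 on shControl arrays, a change of -0.17 (SE 0.04, adjusted p = 0.0193). RAD54B, a motor protein that acts during strand pairing, gave no settled direction. Its brightest probe set was called lower, with 7.98, 7.78 and 7.96 on shTIGD1 arrays, against 8.15, 8.22 and 8.09 on shControl arrays (-0.25, SE 0.06, adjusted p = 0.0378). Its other probe set passed as higher by 0.25.

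Leaving out 1 array ended the calls of PALB2, RAD51C and RAD54B but not that of RAD51AP1. The PALB2 call ended without shTIGD1 replicate 1 or 2 and without shControl replicate 1 or 2 (changes of -0.18 to -0.14, adjusted p between 0.0437 and 0.0874). The RAD51C call ended without shTIGD1 replicate 1 or 3 and without shControl replicate 1 or 2 (-0.18 to -0.15, adjusted p between 0.0431 and 0.0673). The RAD54B call ended in each of the 6 fits (-0.28 to -0.18, adjusted p between 0.0536 and 0.0961). All 3 also turned positive with the poly-A controls, and PALB2 and RAD51C then passed as higher. The 8 other genes of this role did not pass. BRCA1, the ubiquitin ligase at the head of the pathway, had 8.06, 8.18 and 7.97 on shTIGD1 arrays, against 7.90, 8.01 and 8.16 on shControl arrays. These values overlapped (0.05, 95% interval -0.15 to 0.24), and none of the 5 BRCA1 probe sets passed. Its partner BARD1 had a change of -0.12. The genes whose products form complexes with RAD51C had changes of 0.11 (RAD51B), 0.10 (RAD51D), -0.12 (XRCC2) and -0.15 (XRCC3). RAD51D had separate groups and a narrow interval (0.03 to 0.18), and missed the threshold at an adjusted p of 0.0644. RAD54L, a motor protein like RAD54B, had a wide spread on shControl arrays (6.82, 6.66 and 7.07) and a change of -0.24 (adjusted p = 0.178). The annealing factor RAD52 differed by 0.02.

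In the Fanconi core complex, counted here with FANCM, FAAP24 and UBE2T, FANCG and FAAP100 fell and FANCF rose. The other 6 of 9 measured genes did not pass. The share called was 33.3%, against 23.8% of all genes. The core complex genes FANCB and FAAP20 were counted in the list of other pathway genes given below. FANCG, a scaffold subunit, had 7.86, 7.79 and 7.85 on shTIGD1 arrays, against 8.26, 8.23 and 8.24 on shControl arrays. The change was -0.41 (SE 0.04, adjusted p = 0.00104), so the level fell by 24.7%. FAAP100, a subunit of the module that holds the ubiquitin ligase FANCL, had 7.05, 6.92 and 7.004 on shTIGD1 arrays, against 7.52, 7.38 and 7.27 on shControl arrays. Its change was -0.40 (SE 0.07, adjusted p = 0.0105), and its second probe set also passed as lower (-0.26). FANCF, an adaptor subunit, had 8.76, 8.76 and 8.86 on shTIGD1 arrays, against 8.56, 8.54 and 8.55 on shControl arrays. Its change of 0.24 (SE 0.04, adjusted p = 0.00776) was carried by the brightest probe set, and the other FANCF probe sets had 0.04 and 0.08. These 3 calls held without any single array, and with the poly-A controls FANCG and FAAP100 stayed negative at -0.08 and -0.07 without passing.

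The ubiquitin ligase and its E2 enzyme were not called. FANCL had 9.27, 9.30 and 9.24 on shTIGD1 arrays, against 9.24, 9.26 and 9.25 on shControl arrays, with an interval of -0.06 to 0.10. UBE2T, the E2 enzyme, had 10.52, 10.48 and 10.51 on shTIGD1 arrays, against 10.65, 10.59 and 10.54 on shControl arrays. Its groups were separate, but the change of -0.09 did not pass (adjusted p = 0.165). FANCC and FANCE had 0.07 each, the translocase FANCM 0.02 and its partner FAAP24 -0.08. None of the 3 FANCM probe sets passed, and its means were 5.73 on shTIGD1 and 5.71 on shControl arrays.

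Downstream of the core complex, SLX4 fell, BRIP1 rose near background, and FANCI was called lower on its brightest probe set. The other 3 of 6 measured genes did not pass, where 23.8% of all genes were called. FANCI, which is ubiquitinated with FANCD2, had 9.39, 9.44 and 9.47 on shTIGD1 arrays, against 9.67, 9.62 and 9.56 on shControl arrays (-0.18, SE 0.04, adjusted p = 0.0261). Its probe sets disagreed: a second one passed as lower (-0.17) and the dimmest as higher (0.19). SLX4, the scaffold for the nucleases that unhook a crosslink, had 7.75, 7.72 and 7.80 on shTIGD1 arrays, against 7.90, 7.94 and 7.88 on shControl arrays (-0.15, SE 0.04, adjusted p = 0.0323). BRIP1, a helicase that binds BRCA1, had 4.06, 3.94 and 3.85 on shTIGD1 arrays, against 3.60, 3.81 and 3.53 on shControl arrays. Its change of 0.30 (SE 0.09, adjusted p = 0.0472) lies close to the level of the background probe sets. The SLX4 call ended in each of the 6 fits without 1 array (-0.17 to -0.13, adjusted p between 0.0508 and 0.0937). The FANCI call held only without shControl replicate 3 (-0.21 to -0.16, adjusted p between 0.0317 and 0.0868), and the BRIP1 call only without shControl replicate 2 (0.25 to 0.38, adjusted p between 0.0222 and 0.129).

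USP1, which removes the ubiquitin from FANCD2 and FANCI, had 10.42, 10.46 and 10.40 on shTIGD1 arrays, against 10.40, 10.47 and 10.37 on shControl arrays. This brightest USP1 probe set was level (0.02, 95% interval -0.08 to 0.11). A dimmer USP1 probe set averaged 8.18 on shTIGD1 and 7.75 on shControl arrays and passed as higher by 0.43 (SE 0.04, adjusted p = 0.00137 over all probe sets). The nuclease FAN1 (0.05) and the ubiquitin ligase RAD18 (0.11) did not pass.

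Among the genes of end resection, RAD50 fell and the other 4 measured genes did not pass. This 1 call among 5 genes is not a larger share than the 23.8% called over all genes. RAD50, the coiled-coil subunit of the complex that binds broken ends, had 9.79, 9.76 and 9.84 on shTIGD1 arrays, against 10.09, 10.06 and 10.02 on shControl arrays. Its change was -0.26 (SE 0.04, adjusted p = 0.00531) and held without any single array, turning to 0.07 with the poly-A controls. A second RAD50 probe set passed as lower (-0.33) and the other one differed by -0.03. The partners of RAD50 were not called. The nuclease subunit MRE11 had 8.42, 8.36 and 8.43 on shTIGD1 arrays, against 8.47, 8.42 and 8.49 on shControl arrays (-0.06, adjusted p = 0.300). The signalling subunit, NBN, had 10.34, 10.24 and 10.21 on shTIGD1 arrays, against 10.07, 10.13 and 10.17 on shControl arrays. Its change of 0.14 missed the threshold (adjusted p = 0.0842), and all 5 of its probe sets were above 0, with 1 past it at 0.27. RAD50 and NBN thus had changes of opposite sign, and whether they differ from each other was not tested. The nucleases EXO1 (-0.12, adjusted p = 0.0915) and DNA2 (0.01, adjusted p = 0.947) complete this role.

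Probe sets of 1 gene can read different stretches or transcript forms, and they did not always give the same answer. Whether they share probes was not examined, so agreement among them may not be independent. Of the 48 genes, 32 had several probe sets, 131 in all over the set. Among the 83 dimmer probe sets, 13 passed as higher and 5 as lower, whereas the brightest ones gave 7 and 14. Over all genes, 13.4% of the dimmer probe sets passed as higher and 9.42% as lower, so in both more passed as higher than as lower. For the 14 called genes with several probe sets, 26 of 32 further probe sets had the sign of the brightest. Calls in both directions were found for 2 genes, FANCI and RAD54B, so these genes have no settled direction. CHEK1, CHEK2, RAD51AP1, TOP3A and FAAP100 had a call of the same direction on more than 1 probe set, and so did RAD50. ATM passed on 2 of 5 probe sets (0.34 and 0.25), and the others had 0.20, 0.02 and -0.19. Its change with the mean of all probe sets was 0.13 (adjusted p = 0.0296). RAD51C passed on 2 of 4 (-0.17 on each), while the others had -0.15 and, on a set averaging 8.88 in both groups, no difference (-0.0001). With the mean of all probe sets the calls of RAD51C (-0.12, adjusted p = 0.115), FANCF (0.12, adjusted p = 0.0603), FANCI (-0.05, adjusted p = 0.306) and TP53BP1 (-0.02, adjusted p = 0.596) ended, as did those of RAD54B and GEN1.

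**Figure D4:**
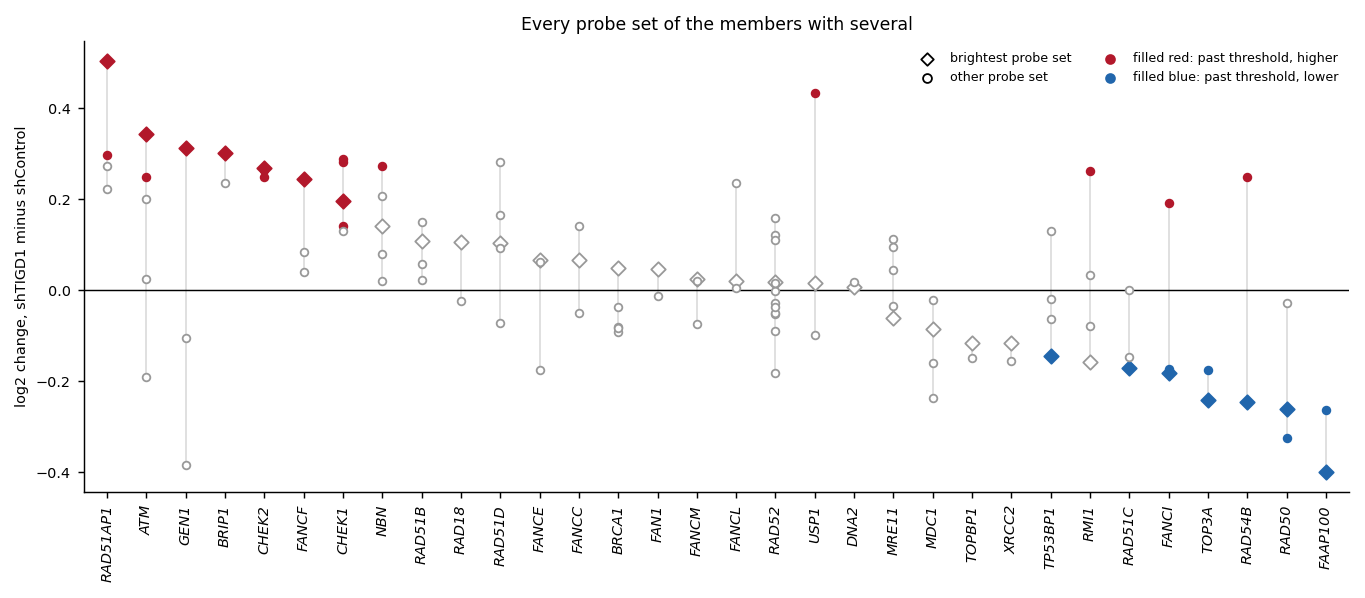
Log2 change, shTIGD1 minus shControl (vertical axis), of every probe set of the 32 genes with several, ordered by the change of the brightest; diamonds are the brightest probe set, circles the others, and filled symbols passed the threshold. The 6 CHEK1 and 3 CHEK2 symbols cluster above 0, while FANCI and RAD54B hold filled symbols on both sides.

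The sequence just upstream of the start site was examined as a feature that the measured signals do not enter. RefSeq promoter windows (build GRCh38.p14) were found for 42 of the 48 genes, and the 250 bases before the start were searched on both strands. The motifs were the CCAAT box (CCAAT), bound by NF-Y, the ETS site (CTTCCGG), the GC box (GGGCGG), the CHR element (TTTGAA) of cell cycle genes, and the E2F site in 4 spellings (TTTCCCGC, TTTCGCGC, TTTGCCGC and TTTGGCGC). No motif contains another. A CCAAT box was present in all 7 genes that rose, in 3 of the 11 genes called lower that have a window, and in 12 of the 24 that did not pass, against 40.5% of all genes with a window. An ETS site was present in 2 of the 7, 7 of the 11 and 4 of the 24, against 14.4% of all genes. The GC box was held by 32 of the 42 genes (63.7% of all genes), the CHR element by 7 (14.2%) and an E2F site by 2 (4.73%). A gene counts if any of its windows holds the motif, and 4 of the 7 and 10 of the 11 have a single window. These counts describe letters, not binding, and were not tested.

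The promoters of 6 genes are shown to let the upstream letters of opposite calls be compared, 3 of genes that rose (RAD51AP1, CHEK2, ATM) and 3 of genes that fell (ATR, BLM, RAD50). Each is read 5′ to 3′ on the strand of its gene and ends at the base before the start, and capitals mark the CCAAT, ETS and CHR letters.
RAD51AP1, chr12:4538690-4538889, plus strand: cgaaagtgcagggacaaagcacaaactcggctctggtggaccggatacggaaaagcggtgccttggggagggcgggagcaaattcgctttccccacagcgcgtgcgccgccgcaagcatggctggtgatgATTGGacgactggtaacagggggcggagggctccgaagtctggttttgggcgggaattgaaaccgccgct
CHEK2, chr22:28741821-28742020, minus strand: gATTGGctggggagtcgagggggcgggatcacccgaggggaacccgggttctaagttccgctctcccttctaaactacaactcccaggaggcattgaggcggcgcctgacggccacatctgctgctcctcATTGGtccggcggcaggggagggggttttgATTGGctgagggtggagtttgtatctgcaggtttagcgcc
ATM, chr11:108222867-108223066, plus strand: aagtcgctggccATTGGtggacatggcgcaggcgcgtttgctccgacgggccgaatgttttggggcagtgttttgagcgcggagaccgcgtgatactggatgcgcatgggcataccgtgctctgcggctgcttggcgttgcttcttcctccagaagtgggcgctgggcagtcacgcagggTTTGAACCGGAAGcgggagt
ATR, chr3:142578734-142578933, minus strand: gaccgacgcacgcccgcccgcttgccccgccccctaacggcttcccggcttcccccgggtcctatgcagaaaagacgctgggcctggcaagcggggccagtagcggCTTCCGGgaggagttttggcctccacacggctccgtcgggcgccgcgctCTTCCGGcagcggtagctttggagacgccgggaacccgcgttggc
BLM, chr15:90717146-90717345, plus strand: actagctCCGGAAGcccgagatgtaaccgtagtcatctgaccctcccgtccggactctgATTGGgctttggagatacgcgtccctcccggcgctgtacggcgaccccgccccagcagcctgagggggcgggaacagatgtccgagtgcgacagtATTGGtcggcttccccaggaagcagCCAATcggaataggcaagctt
RAD50, chr5:132556827-132556976, plus strand: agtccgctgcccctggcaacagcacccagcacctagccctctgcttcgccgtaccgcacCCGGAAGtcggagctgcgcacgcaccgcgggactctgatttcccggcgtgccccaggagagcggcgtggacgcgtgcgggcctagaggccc
RAD51AP1 held 1 CCAAT box and CHEK2 held 3, with no ETS site in the shown stretch of either. The stretch of ATR held 2 ETS sites and no CCAAT box, RAD50 held 1 ETS site in the stretch shown, and BLM and ATM held both motifs. All 3 falls shown thus held an ETS site, as did 7 of the 11 genes called lower that have a window. FANCG (-0.41) and FAAP100 (-0.40) fell more than ATR (-0.28) and RAD50 (-0.26) but are not shown. Neither FANCG nor FAAP100 held an ETS site or a CCAAT box in the bases searched.

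Among other genes of recombination, crosslink repair, end joining and checkpoint control, WEE1 and ERCC4 led the rises and falls. Of 78 listed, 74 were measured, and 4 rose and 19 fell, which is 31.1% called where 23.8% of all genes were, with a median of -0.07. With genes under a signal of 5 left out, 8 rose and 24 fell of 72, against 2164 and 3052 of 12776 genes. The leading rises were WEE1, the kinase that holds CDK1 inactive (0.43, adjusted p = 0.000879), XRCC4, a factor of end joining (0.21), the crosslink nuclease DCLRE1A (0.17) and ETAA1, an activator of ATR (0.16). The leading falls were ERCC4, a nuclease that cuts beside crosslinks (-0.45, adjusted p = 0.00413), the phosphatase CDC25B, which opposes WEE1 (-0.32, adjusted p = 0.00183), the helicase RECQL4 (-0.28) and the histone H2AX (-0.28). The 4 remaining genes were not analysed here. The counts depended on the scaling. With the hybridization controls 36 of 74 were higher and 2 lower, where 47.9% of all genes were higher and 1.98% lower.

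Cell cycle genes were read as context for these changes. Of 19 S phase genes, 1 rose and 8 fell, so 47.4% were called where 23.8% of all genes were, with a median of -0.09 against -0.04 over all genes. Of 20 G2/M genes 4 fell and by limma 0 rose, also 0 at an unadjusted p of 0.05, with a median of 0.01. The share of G2/M genes called lies near that of all genes. MKI67, the proliferation marker, fell to 9.35 ± 0.04 on shTIGD1 arrays, against 9.54 ± 0.01 on shControl arrays (SD, n = 3 each; limma adjusted p = 0.0136). PCNA, the sliding clamp, had a change of -0.01 (adjusted p = 0.818). CDKN1A, the p53-induced cell cycle inhibitor, fell by 0.63 on the log2 scale (SE 0.04, adjusted p = 0.000358). Fewer cells in S and G2 phase and less transcript per cell cannot be told apart in bulk RNA, and the part of cell cycle position in the changes above was not tested. The median spread between replicates of the recombination, Fanconi and checkpoint genes was 0.06 on shTIGD1 and 0.05 on shControl arrays (SD), against 0.06 on both for all genes.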

How the data were processed

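Per the labels' protocols, A549 total RNA was amplified by 3′ in vitro transcription, biotin-labelled, and read on Affymetrix arrays of 1 colour. The deposited values are log2 signals for 49395 probe sets, which the authors computed using RMA and GCOS according to the submitters' processing notes, with no version given in the sources used here. Log base 2 was inferred from the range of values (2.38 to 14.80). RMA makes the arrays' distributions alike, so a shift common to most genes would not show in the deposited values. Scan dates were not used here, so scanning batches were not tested.

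The platform annotation gave 1 symbol to 45278 probe sets, several to 1333 and none to 2682, with 102 controls left out. Each gene took its brightest probe set (18244 genes). Probe sets were named from that annotation, promoters from RefSeq. The test was limma 3.58.1 (lmFit, eBayes, in R 4.3.3) on shTIGD1 minus shControl, as a two-sided test at 0.05, adjusted by Benjamini-Hochberg over all 18244 genes; adjusted p-values in the text are from this fit unless said otherwise. Probe sets were also tested singly, over all probe sets. Tables and figures used Python 3.11.15, pandas 2.3.3 and matplotlib 3.10.9. Signals of different genes are not compared as amounts.

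On simulated data with the real means and spread, shTIGD1 against shControl over 18244 genes, the test recovered 42% of 50 genes changed 1.2-fold, 92% of 50 changed 1.5-fold, and 100% of those changed 2-fold or 3-fold. It made 180 calls, 13 of them false. The simulation changed 200 genes, whereas 4340 genes passed in the data. Its adjusted threshold was therefore stricter than that of the data, and its recovery cannot be carried over. Any 2 arrays shared at most 184 equal values.

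The genes and lists, roles, motifs and promoters shown were chosen with earlier results of these data known. By rule, each gene past the threshold is given with its array values, others by change; the dimmer probe sets of USP1, RMI1 and NBN were singled out after their values were seen. Alternatives were other probe sets, normalizations, control scalings, a filter on dim genes, eBayes settings, array weights, a replicate block, a stricter threshold and leaving out each array.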

Additional observations from a re-analysis of the deposited data

How the results depend on the processing

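As deposited, 7 genes of the set were higher and 14 lower, 1789 and 2551 among all genes, and 4 and 19 among the other pathway genes. With an adjusted p of 0.01 these were 2 and 5, 879 and 974, and 1 and 6. Deviations of same-numbered arrays correlated at -0.03, -0.13 and -0.09, which cannot settle whether the replicate numbers pair the arrays. With the replicate block the counts were 3 and 5, 1098 and 1293, and 2 and 8. With hybridization control scaling they were 21 and 2, 8735 and 361, and 36 and 2, and the set's median turned to 0.12. With poly-A control scaling they were 36 and 0, 13954 and 119, and 59 and 0, with a median of 0.25. The other pathway genes had 7 rises with trend and robust settings, 8 with genes under a signal of 5 left out and 8 with the mean of all probe sets. Leaving out 1 array gave 3 to 6 rises and 7 to 9 falls in the set, 1177 to 1474 and 1564 to 1912 among all genes, 1 to 3 and 9 to 13 among the other pathway genes, and a median of -0.10 to -0.06. Fewer arrays also leave fewer degrees of freedom. Of the 21 called genes, 9 passed in all 6 of these fits.

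With the hybridization controls the changes of PALB2, RAD51C, FANCI, SLX4, EME1, TP53BP1 and TIGD1 turned to 0.0525, 0.0375, 0.0249, 0.0554, 0.0063, 0.0634 and 0.15. With the poly-A controls they were 0.18, 0.16, 0.15, 0.18, 0.13, 0.19 and 0.28, and RAD54B, RAD50, RMI2, TOP3A and ATR turned to 0.0873, 0.0721, 0.11, 0.0911 and 0.0544. Of the genes in the first list, all but EME1 passed as higher with the poly-A controls. By construction, a control scaling moves the changes of all genes alike. With the mean of all probe sets RAD54B turned to 0.002 and GEN1 to -0.0594, and with the second brightest probe set to 0.25 and -0.11. In the set, all 21 calls held with equal medians, array weights, and trend and robust settings, and 20 with repeated quantile normalization, against 15 with the mean of all probe sets (4 no longer passed and 2 reversed) and 13 with the second brightest (6 and 2). Where a result did not hold under other settings, the cause was not tested. All alternatives were run, but BRIP1 falls below the signal filter and has no value there. Signal near background limits BRIP1, and a missed threshold does not show that a gene is unchanged. The 42% recovery at 1.2-fold came from a simulation with fewer changed genes, so it does not give the recovery in these data.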
